A study of Drosophila melanogaster with 36 samples.

Results

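The genes described here encode the small structural RNAs of the nucleus and of RNA processing. They were chosen by FlyBase symbol alone, as every gene whose symbol begins with snRNA:, snoRNA:, scaRNA:, 7SL, RNaseP:RNA or RNaseMRP:RNA. The Drosophila annotation of Ensembl release 115 (BDGP6) holds 310 such genes: 111 box H/ACA snoRNAs, 93 box C/D snoRNAs, 53 other snoRNAs whose symbol names no box or target site, 32 snRNAs, 17 scaRNAs, 2 copies of 7SL RNA, and the RNA subunits of RNase P and RNase MRP. Of these, 92 had a row in at least 1 of the expression tables, which together list 10226 genes, and 66 had a row in all 3 time windows. The snoRNA classes were read from the symbols alone, so the other snoRNAs, among them U3, can include RNAs of either box.

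The U1, U2, U4, U5 and U6 snRNAs form the core of the spliceosome, and U11, U12 and U4atac serve the minor spliceosome, which removes a rare class of introns. Box H/ACA snoRNAs guide the conversion of uridine to pseudouridine and box C/D snoRNAs guide ribose methylation, mainly in ribosomal RNA, while scaRNAs guide the same changes in snRNAs in the Cajal body. 7SK RNA holds the elongation kinase P-TEFb inactive, RNase P trims the leader of pre-tRNA, RNase MRP cuts pre-ribosomal RNA, and 7SL is the RNA of the signal recognition particle, which directs ribosomes to the endoplasmic reticulum. The fly embryo begins development on RNA and protein made by the mother and switches its own genome on gradually.

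The study sequenced RNA from sucrose gradients of embryo lysates. Each group had 3 libraries, and there were 36 in all: 2 genotypes, 3 windows after egg laying (0-1h, 1-2h and 2-3h) and 2 gradient pools named pool 3 and pool 1. The embryos labelled orb2∆ZZ, written orb2-delta-zz here, carry a deletion of the ZZ domain, a zinc-binding stretch of ORB2, which belongs to the CPEB proteins that bind mRNAs and control their translation. The wild-type embryos were w1118, labelled as a pre-injected control. All flies were kept at 25 °C, all lysates contained cycloheximide and heparin, and all libraries were depleted of ribosomal RNA and stranded. Neither the gradient fractions joined in each pool nor the origin of the replicates, as separate embryo collections or not, is given in the labels, so the p-values measure only the spread between these libraries.

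Which of these RNAs had a row followed their length. Among 106 members shorter than 100 nt none had a row. The share with a row was 11.1% (2 of 18) in the next length bin, then 34.9% (22 of 63), 49.4% (41 of 83), 63.6% (14 of 22) and 72.2% (13 of 18) in successively longer bins. Members with a row had a median annotated length of 145 nt, against 102 nt for members without. By class, 54 box H/ACA snoRNAs, 19 snRNAs, 12 other snoRNAs, 4 scaRNAs, and both RNase P and RNase MRP RNA had a row. Only 1 snoRNA with a box C/D symbol had a row (Or-CD2, in the 2-3h tables only). No row was present for U6 (3 copies), U7, which acts in histone mRNA 3′ end formation, U6atac, 7SKb, or either copy of 7SL, although the 7SL copies are 299 nt long. The account below therefore concerns longer members, above all box H/ACA snoRNAs and snRNAs. Levels of 7SL, U6 and nearly all snoRNAs with a box C/D symbol were not analysed here.

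**Figure D1:**
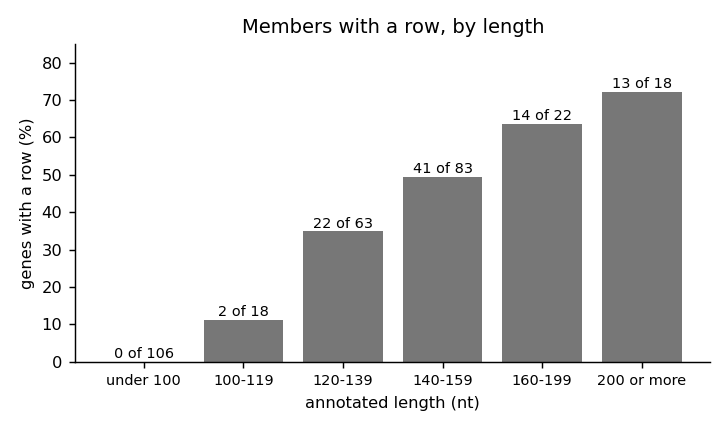
Share of the 310 genes with a row in at least 1 table, by annotated length in nucleotides, with the number with a row and the number annotated over each bar. None of the 106 genes under 100 nt had a row, and the share reached 72.2% in the longest bin.

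The tables held 73, 74 and 84 members among 7746, 8723 and 10091 genes at 0-1h, 1-2h and 2-3h. A gene had a row in a window only where it was above 0 in all 12 libraries of that window. The normalized counts summed to between 2.16e+07 and 4.73e+07 per library, from an estimated 22.9 to 45.0 M reads. The gene-level orb2 row cannot show the loss of 1 domain. At 0-1h in pool 1 it was 1327, 1119 and 1090 normalized counts in orb2-delta-zz and 2034, 1383 and 1080 in wild type, and the single genotype contrast past the threshold was that of pool 1 at 2-3h (log2 difference 1.06 ± 0.32 SE, limma adjusted p = 0.0315). Of 20 markers of late embryos, 8, 13 and 17 had rows in the 3 windows, and their summed normalized counts set single libraries apart: replicate 1 of orb2-delta-zz at 0-1h in pool 1 (4008, against 45.0 and 242 in the other two), replicate 3 of orb2-delta-zz (3728, against 700.5 and 874) and replicate 2 of wild type (4954, against 410 and 278) at 1-2h in pool 1, and replicate 2 of both genotypes at 2-3h (25530 in orb2-delta-zz and 24510 in wild type). Of 18 egg-shell and yolk markers, 1, 0 and 2 had rows. The part of older embryos in the results below was not tested beyond leaving out single replicates.

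These RNAs were a far smaller share of the pool 3 libraries than of the pool 1 libraries. In pool 3 of orb2-delta-zz they made up 1.02%, 0.793% and 1.13% of all TPM at 0-1h, 1-2h and 2-3h, and in pool 3 of wild type 1.08%, 0.864% and 1.17% (means, n = 3 each). In pool 1 of orb2-delta-zz they made up 15.4 ± 2.94%, 13.9 ± 1.21% and 21.7 ± 2.26% (mean ± SD, n = 3 each), and in pool 1 of wild type 14.8 ± 6.27%, 16.0 ± 3.53% and 20.5 ± 1.34%. These means are in the order of the windows. The genotypes overlapped in every window and pool. The wide spread at 0-1h in wild-type pool 1 came from replicate 1, with 7.80% against 16.6% and 19.9% in the other two libraries.

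TPM divides by an effective length that falls far below the annotated one for short RNAs, so TPM raises them relative to mRNAs. The files' own values implied an effective length of about 14 nt for the 131-nt U5:23D, 26.7 nt for the 164-nt U1:21D and 196 nt for the 382-nt RNase MRP RNA. As a share of normalized counts, which are not divided by length, the same RNAs held 0.0268% to 0.0428% of pool 3 over its 6 groups. In pool 1 they held 1.80%, 1.54% and 2.87% in orb2-delta-zz and 1.75%, 1.75% and 2.98% in wild type over the windows. The level per length thus depends strongly on that correction, while the gap between pools is seen on both scales.

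**Figure D2:**
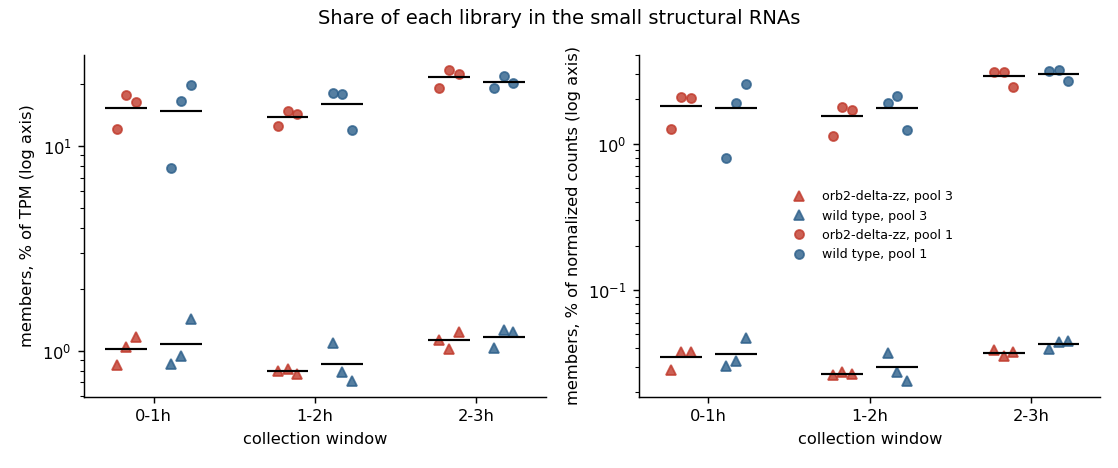
Share of TPM (left) and of normalized counts (right) held by all members in every library, on log axes in percent, by collection window, with a black line at each group's mean, triangles for pool 3 and circles for pool 1, and orb2-delta-zz left of wild type. On the TPM scale pool 3 libraries lie between 0.710% and 1.43%, and pool 1 libraries between 7.80% and 23.5%.

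By class, on the TPM scale, the snRNAs were the largest group in pool 1, with 7.53%, 6.52% and 10.01% of the total in orb2-delta-zz and 7.82%, 7.86% and 9.84% in wild type over the 3 windows. Box H/ACA snoRNAs followed with 4.12%, 4.40% and 7.31% in orb2-delta-zz and 3.51%, 4.95% and 6.45% in wild type. The pair of RNase P and RNase MRP RNA alone held 2.64%, 1.91% and 2.52% in orb2-delta-zz and 2.48%, 1.91% and 2.16% in wild type. The 4 scaRNAs with rows at 2-3h held 0.165% in orb2-delta-zz and 0.201% in wild type. In normalized counts, RNase P and RNase MRP RNA were above the box H/ACA snoRNAs at 0-1h in pool 1. There the pair held 0.597% in orb2-delta-zz and 0.559% in wild type, against 0.139% and 0.132% for the box H/ACA snoRNAs.

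U1:21D, a copy of the U1 snRNA that pairs with the 5′ splice site, had the highest mean TPM of all members. At 2-3h in pool 3 it measured 1546, 1374 and 1825 TPM in orb2-delta-zz and 1170, 1513 and 1772 TPM in wild type. In pool 1 it measured 32726, 37194 and 36317 TPM in orb2-delta-zz and 31505, 35598 and 32611 TPM in wild type. The genotypes overlapped in both pools and the pools lay far apart. U1:21D ranked between 36 and 87 among all genes by mean TPM in each pool 3 group and between 1 and 3 in each pool 1 group. After it came 7SKa, RNase MRP RNA, RNase P RNA, SC35-a, a snoRNA from an intron of the splicing factor gene SC35, and Psi18S-1820, named for the pseudouridine it guides in 18S ribosomal RNA. Psi18S-1820 measured 5755, 6049 and 4990 TPM in pool 1 of orb2-delta-zz at 2-3h and 4537, 5613 and 3636 TPM in wild type, close to the other copy of U1 with a row, U1:95Cc, at 5648, 5435 and 5229 TPM in orb2-delta-zz and 4527, 4640 and 4040 TPM in wild type. No member was among the 10 highest genes in a pool 3 group, and 2 to 4 were in each pool 1 group. These orders are those of TPM and rest on effective lengths of about 26.7 nt for U1:21D and 245 nt for 7SKa. At 2-3h in pool 1 the 2 U1 copies together had a mean of 92140 normalized counts in orb2-delta-zz and 84800 in wild type. In each of those libraries 7SKa and RNase MRP RNA each had more, with counts given below.

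The levels assigned to copies of 1 snRNA differed widely. How reads were divided between similar copies is uncertain, as described for U2 below. Of the U5 copies, at 2-3h in pool 1, U5:23D had 2135, 5570 and 6618 TPM in orb2-delta-zz and 3453, 4600 and 3950 TPM in wild type. U5:63BC, the copy with the lowest mean, had 85.5, 244 and 285 TPM in orb2-delta-zz and 123, 140 and 180 TPM in wild type. U4:39B had 3195, 7153 and 7658 TPM in orb2-delta-zz and 3766, 4545 and 5171 TPM in wild type, and the other U4 copy, U4:38AB, 1087, 2436 and 2683 TPM in orb2-delta-zz and 1475, 1784 and 2052 TPM in wild type. The genotypes overlapped in each case, and replicate 1 of orb2-delta-zz was the lowest library for all 4 genes. The minor spliceosomal RNAs spread less: U11 had 3177, 3317 and 3133 TPM in orb2-delta-zz and 3310, 3493 and 3423 TPM in wild type, and U12 3104, 3237 and 3094 TPM in orb2-delta-zz and 3742, 4197 and 3361 TPM in wild type.

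Every member tested was lower in pool 3 than in pool 1, in both genotypes and in each window. The count was 71 of 71 members at 0-1h, 74 of 74 at 1-2h and 84 of 84 at 2-3h (limma on log2 of the normalized count plus 1, adjusted p under 0.05). Genes entered the test by their mean over the libraries of both pools. A member with few counts in pool 3 could thus enter through pool 1 alone, and these counts and the ranks below are not independent of that filter. Among all genes tested, 39.9%, 37.6% and 30.1% were called lower in pool 3 of orb2-delta-zz in the 3 windows, and 40.6%, 37.0% and 27.1% in wild type. The members' median log2 difference, pool 3 minus pool 1, was -5.44, -6.05 and -6.67 in orb2-delta-zz and -5.10, -6.14 and -6.72 in wild type. Over all genes it was 0.04, 0.06 and 0.02 in orb2-delta-zz and 0.01, 0.07 and -0.07 in wild type. Of the 50 genes with the lowest difference, 45, 45 and 48 were members in orb2-delta-zz and 44, 47 and 48 in wild type, although members were 0.943%, 0.892% and 0.879% of the genes tested. On the TPM scale the median of all genes itself lay at 1.19, 1.31 and 1.83 in orb2-delta-zz and 1.09, 1.33 and 1.85 in wild type, and the members' medians were -4.11, -4.23 and -4.28 in orb2-delta-zz and -3.77, -4.48 and -4.28 in wild type. A difference between pools is one of concentration in each pool after scaling, and the pools were sequenced as separate libraries, so it is not a share of the RNA in the embryo.

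**Figure D3:**
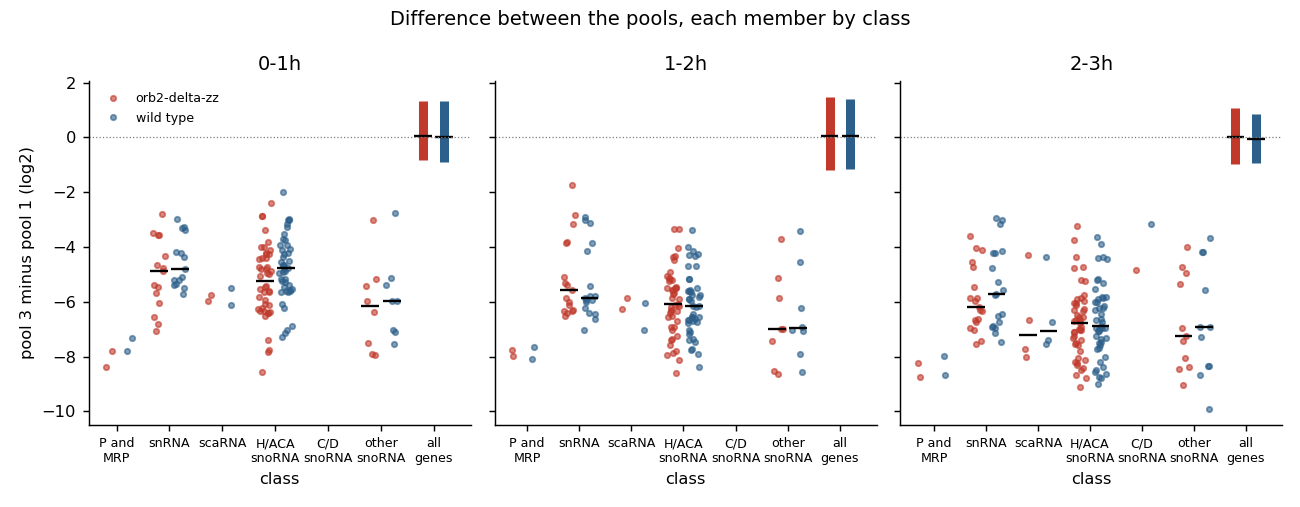
Log2 difference in normalized counts, pool 3 minus pool 1, for each member by class in each window, with orb2-delta-zz left of wild type, black lines at class medians, and on the right a bar from the lower to the upper quartile of all genes with a line at their median. Every member lies below 0, at 2-3h from -9.91 to -2.95 in wild type.

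The 2 processing ribonucleases were among the members with the widest gap. RNase MRP RNA (382 nt, 3R:23730048-23730429, minus strand) had 644, 466 and 511 normalized counts in pool 3 of orb2-delta-zz at 2-3h, against 330284, 234813 and 162705 in pool 1. In wild type it had 594, 398 and 498 in pool 3, against 270340, 197874 and 145760 in pool 1. The log2 difference was -8.76 ± 0.28 (SE) in orb2-delta-zz and -8.66 ± 0.28 in wild type, with limma adjusted p of 8.4e-11 and 9.6e-11. RNase P RNA (299 nt, 3R:31217364-31217662, minus strand, within an intron of the ATP synthase gene ATPsynC) had 387, 268 and 273 normalized counts in pool 3 of orb2-delta-zz against 143080, 82199 and 64659 in pool 1. In wild type it had 351, 253 and 365 in pool 3 against 105784, 82807 and 59141 in pool 1. The libraries of the pools did not overlap for either RNA.

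Among snRNAs, the pool difference varied by kind. 7SKa (444 nt, 3R:7474553-7474996, minus strand) had 4498, 3411 and 3644 normalized counts in pool 3 of orb2-delta-zz at 2-3h, against 567633, 457943 and 395756 in pool 1. In wild type it had 5059, 4293 and 5283 in pool 3, against 684339, 518191 and 575142 in pool 1. Its log2 difference was -6.94 ± 0.18 (SE) in orb2-delta-zz and -6.92 ± 0.18 in wild type (limma adjusted p = 3.7e-11 and 3.5e-11). U1:21D differed by -7.04 in orb2-delta-zz and -6.96 in wild type, U4:39B by -6.72 and -6.53, and U5:23D by -6.34 and -5.72, in the same order of genotypes. The minor spliceosomal RNAs lay in the same range: -7.42 and -7.47 for U12, which pairs with the branch site, -6.63 and -6.72 for U11, which pairs with the 5′ splice site, and -6.67 and -6.88 for U4atac.

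The copies of U2, the snRNA that pairs with the branch point, had smaller gaps. At 2-3h they measured, in orb2-delta-zz and then wild type, -4.54 and -4.13 for U2:34ABa, -4.72 and -4.21 for U2:34ABb, -4.02 and -2.95 for U2:38ABa, and -3.58 and -3.15 for U2:14B. U3:54Ab, a copy of U3, the snoRNA needed to cut pre-ribosomal RNA, measured -4.71 and -4.19. The order of classes and copies was not tested, and each value above passed the test by itself.

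The snoRNAs covered a wide range. The median of the box H/ACA class was -5.24, -6.09 and -6.77 over the windows in orb2-delta-zz, and -4.77, -6.14 and -6.88 in wild type. The other snoRNAs had medians of -6.16, -6.98 and -7.23 in orb2-delta-zz and -5.98, -6.95 and -6.93 in wild type, and the snRNAs -4.86, -5.57 and -6.18 in orb2-delta-zz and -4.79, -5.85 and -5.72 in wild type. SC35-a (153 nt, 2L:12432798-12432950, minus strand) had 23.3, 25.5 and 40.6 normalized counts in pool 3 of orb2-delta-zz at 2-3h against 11311, 19390 and 17888 in pool 1, and in wild type 16.7, 18.0 and 23.3 against 17530, 18481 and 22499. Its log2 difference of -9.04 ± 0.26 (SE) in orb2-delta-zz and -9.91 ± 0.26 in wild type (limma adjusted p = 4.3e-11 and 3.5e-11) was the lowest of the members in wild type. Tudor-SN-a, from the gene of an RNA-binding nuclease, differed by -8.05 in orb2-delta-zz and -8.33 in wild type, and CG32479-a by -8.36 and -8.33. Or-aca5, from the noncoding host gene Uhg4, differed by -8.47 in orb2-delta-zz and -8.64 in wild type, and Psi18S-841d by -8.23 and -8.00. Among the scaRNAs, PsiU2-55, which guides a pseudouridine in U2, differed by -8.03 in orb2-delta-zz and -7.53 in wild type, MeU5-C46 by -6.66 and -6.72, and MeU2-48 by -4.30 and -4.36. Or-CD2 differed by -4.85 in orb2-delta-zz and -3.17 in wild type. For members near 0 in pool 3 the added 1 count makes these differences smaller than the ratio of the counts.

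Most of these genes sit inside other genes. In the same annotation 72 of the 92 members lay within 37 host genes on the same strand, 69 of them within protein-coding hosts, and none overlapped an exon of its host. A fly snoRNA is usually cut from the excised intron of its host transcript. Where both member and host were tested, the host genes had a median pool difference of 0.11, -0.64 and -0.44 in orb2-delta-zz and 0.04, -0.29 and -0.18 in wild type, over 30, 30 and 35 hosts. Members lay below their own host in 52 of 53, 56 of 57 and 62 of 64 pairs in orb2-delta-zz, and in 51 of 53, 56 of 57 and 61 of 64 pairs in wild type. Members of 1 host share it, so these pairs are not independent.

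The hosts themselves went both ways while their snoRNAs did not. The transcript of domino (dom), a chromatin remodeller, was higher in pool 3 at 2-3h, by 3.78 ± 0.19 (SE) in orb2-delta-zz and 3.52 ± 0.19 in wild type on the log2 scale. Its 6 intronic snoRNAs lay between -8.77 and -3.22 in orb2-delta-zz and between -8.99 and -4.35 in wild type. RpS5a, which encodes a protein of the small ribosomal subunit, was lower in pool 3, by -3.53 ± 0.18 in orb2-delta-zz and -3.35 ± 0.18 in wild type, and its 10 snoRNAs lay between -8.14 and -5.85 and between -8.77 and -5.84. RpS7, another such gene, measured -5.12 in orb2-delta-zz and -5.19 in wild type, and its 4 snoRNAs spanned its own value, from -7.54 to -4.76 in orb2-delta-zz and from -7.72 to -5.15 in wild type. Prp8, which encodes the central protein of the U5 particle and holds PsiU2-55, was higher in pool 3 of wild type by 3.48 ± 0.18. The noncoding host genes of snoRNAs were lower in pool 3 as a list, with 7 of 7 called at 2-3h in each genotype and medians of -3.65 in orb2-delta-zz and -3.31 in wild type. That count leaves out Uhg6, whose symbol the annotation gives as a synonym of the protein-coding gene Nop60B.

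Few of these RNAs differed between the genotypes. In pool 1, 0 of 71 members passed the test at 0-1h, 2 of 74 at 1-2h and 5 of 84 at 2-3h, where 10%, 11.4% and 23.9% of all genes tested were called. In pool 3 the counts were 0 of 71, 3 of 74 and 5 of 84, where 7.58%, 8.57% and 14.7% of all genes were called. The shares of members called were below those of all genes in every window and pool, but the members were measured less precisely. Their median standard error was 0.60, 0.38 and 0.34 on the log2 scale over the windows, against 0.14, 0.20 and 0.26 for all genes. With the replicate number as a block, 1, 2 and 6 members were called in pool 1 and 2, 3 and 10 in pool 3. At an unadjusted limma p under 0.05 the members numbered 1, 3 and 6 in pool 1 and 2, 5 and 14 in pool 3. The members' median log2 difference, orb2-delta-zz minus wild type, was 0.42, -0.14 and 0.13 in pool 1 and -0.10, -0.08 and -0.00 in pool 3, against 0.02, 0.11 and -0.03 and 0.03, 0.07 and 0.01 over all genes. The value of 0.42 became -0.37 when wild-type replicate 1 was left out. In bulk embryos, fewer cells of a type and less RNA per cell cannot be told apart.

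The members that differed in most windows were a pair of U2 genes, and they differed in opposite directions. U2:34ABa (192 nt, 2L:13211925-13212116, minus strand) was lower in orb2-delta-zz, and its neighbour U2:34ABb (192 nt, 2L:13215839-13216030, plus strand) was higher. At 2-3h in pool 1, U2:34ABa had 8422, 8248 and 6878 normalized counts in orb2-delta-zz and 16876, 15648 and 11827 in wild type. In pool 3 at 2-3h it had 371, 270 and 373 in orb2-delta-zz and 748, 875 and 894 in wild type. The groups did not overlap in either pool, and the log2 difference was -0.90 ± 0.18 (SE, limma adjusted p = 0.00592) in pool 1 and -1.32 ± 0.18 (adjusted p = 0.00108) in pool 3.

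U2:34ABb had 18470, 18445 and 14628 normalized counts in pool 1 of orb2-delta-zz at 2-3h, against 7089, 6536 and 4820 in wild type. In pool 3 it had 693, 570 and 685 in orb2-delta-zz, against 305, 341 and 338 in wild type. Again no library of one genotype reached the range of the other. The log2 difference was 1.49 ± 0.17 (SE, limma adjusted p = 2.9e-04) in pool 1 and 0.98 ± 0.17 (adjusted p = 0.00475) in pool 3. Omitting any single replicate of either genotype left these calls at 2-3h in place, for both genes and both pools.

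At 1-2h the same directions were called in both pools. U2:34ABa had 2465, 5311 and 3735 normalized counts in pool 1 of orb2-delta-zz and 11032, 11528 and 5712 in wild type, a log2 difference of -1.30 ± 0.30 (SE, limma adjusted p = 0.0132). In pool 3 it had 206, 320 and 259 in orb2-delta-zz and 744, 591 and 542 in wild type, a difference of -1.26 ± 0.30 (adjusted p = 0.0162). U2:34ABb had 5684, 11439 and 8502 in pool 1 of orb2-delta-zz and 4739, 4693 and 2479 in wild type, a difference of 1.11 ± 0.28 (adjusted p = 0.0203). In pool 3 it had 506, 653 and 552 in orb2-delta-zz and 270, 182 and 200 in wild type, a difference of 1.40 ± 0.28 (adjusted p = 0.0056). None of these 4 sets of libraries overlapped between genotypes. Some of these calls rested on single replicates, each left out with both of its pools. That of U2:34ABa in pool 1 was lost on omission of mutant replicate 1 (-1.01) or of wild-type replicate 1 (-1.15) or 2 (-1.12), and in pool 3 on omission of mutant replicate 3 (-1.27) or wild-type replicate 1 (-1.13). That of U2:34ABb in pool 1 was lost on omission of mutant replicate 2 (0.87) or 3 (1.08), of wild-type replicate 3 (0.80), and with upper-quartile scaling (0.96). Mutant replicate 3 and wild-type replicate 2 are the libraries of 1-2h with high late-embryo marker sums.

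At 0-1h neither gene passed the test. The differences were -1.08 ± 0.56 (SE) in pool 1 and -1.24 ± 0.56 in pool 3 for U2:34ABa, with limma adjusted p of 0.309 and 0.307. For U2:34ABb they were 1.39 ± 0.58 and 1.24 ± 0.58, with adjusted p of 0.187 and 0.328. In pool 1 the genotypes overlapped for both genes: U2:34ABa had 2300, 6181 and 5344 normalized counts in orb2-delta-zz and 3299, 12411 and 17612 in wild type, and U2:34ABb had 4199, 12427 and 11098 in orb2-delta-zz and 1157, 4425 and 6250 in wild type. Pool 3 showed no overlap, with 262, 422 and 424 against 648, 778 and 1231 for U2:34ABa, and 535, 832 and 953 against 246, 291 and 449 for U2:34ABb.

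The share of the pair's counts that fell to U2:34ABa within each library was examined after these values had been seen, and is given as a description. It lay between 29.0% and 35.4% in the 18 orb2-delta-zz libraries (median 32.1%) and between 69.7% and 76.5% in the 18 wild-type libraries (median 72.5%). The genotypes did not overlap in any window or pool. Of the counts of all U2 genes with rows, U2:34ABa held 18.0% to 24.1% in orb2-delta-zz and 38.7% to 52.5% in wild type, and U2:34ABb 37.5% to 53.2% in orb2-delta-zz and 13.3% to 22.4% in wild type. The share of U2:38ABa, 12.7% to 27.0% in orb2-delta-zz and 13% to 24.7% in wild type, overlapped within each window and pool except pool 3 at 2-3h, where it was 17.8% to 19.4% in orb2-delta-zz and 24.3% to 24.7% in wild type. That of U2:14B, 10.5% to 22.8% in orb2-delta-zz and 12.4% to 22.5% in wild type, overlapped in every window and pool. The U2 genes summed to a mean of 34240 normalized counts in pool 1 of orb2-delta-zz at 2-3h and 28830 in wild type, and to 1633 in pool 3 of orb2-delta-zz and 2106 in wild type.

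The U2 genes are close copies of one another, so a read can match several of them and the division of reads between copies rests on the few bases by which they differ. From gene-level values, a different amount of a copy and a different sequence of a copy between the 2 stocks cannot be told apart. The values of single copies of U1, U2 and U5 are uncertain for the same reason, and those of the U4 copies may be too.

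**Figure D4:**
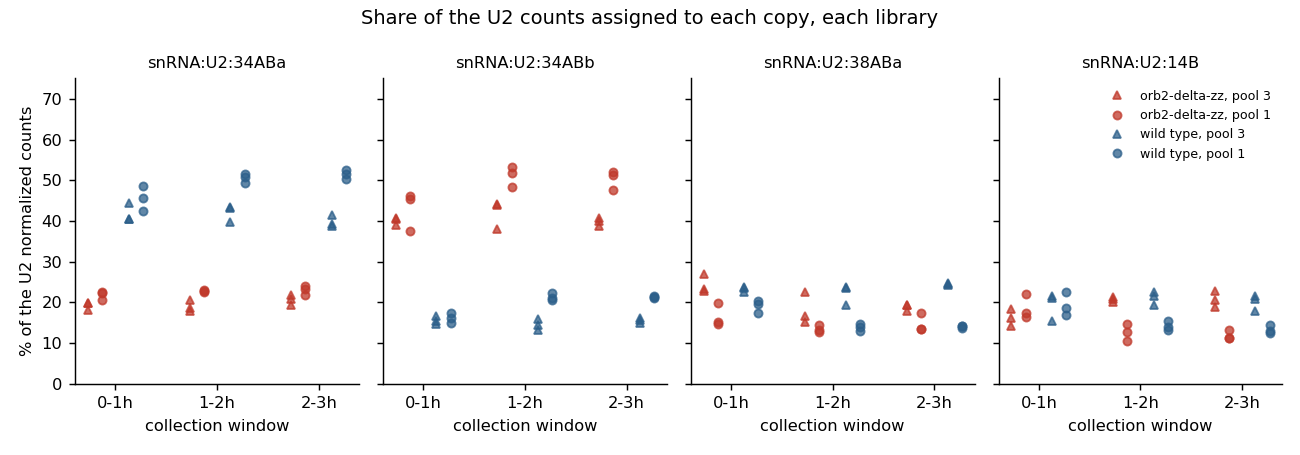
Share of the summed normalized counts of the U2 genes held by each of 4 copies, in percent, in every library by collection window, with orb2-delta-zz left of wild type, triangles for pool 3 and circles for pool 1. U2:34ABa lies at 18.0% to 24.1% in orb2-delta-zz and 38.7% to 52.5% in wild type, U2:34ABb at 37.5% to 53.2% in orb2-delta-zz and 13.3% to 22.4% in wild type, U2:14B overlaps in every window and pool, and U2:38ABa in all but pool 3 at 2-3h.

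The other copies behaved less uniformly. U2:38ABa was lower in pool 3 of orb2-delta-zz at 2-3h, with 319, 270 and 331 normalized counts against 477, 514 and 553 in wild type, a log2 difference of -0.75 ± 0.22 (SE, limma adjusted p = 0.0397). That call was lost on omission of mutant replicate 2 or 3 or of wild-type replicate 1 or 3 (-0.80 to -0.66). U1:21D held 75.3% to 79.2% of the U1 counts in pool 3 of orb2-delta-zz and 81.7% to 86.6% in pool 3 of wild type, with no overlap. In pool 1 it held 83.7% to 89.6% in orb2-delta-zz and 86.6% to 89.0% in wild type, and there libraries of the same window overlapped at 1-2h alone. Of the counts of the U5 copies with rows, U5:34A held 26.4% to 44.7% in orb2-delta-zz and 17.3% to 36.8% in wild type. Its genotypes did not overlap in pool 1 at 1-2h or in either pool at 2-3h. They overlapped in both pools at 0-1h and in pool 3 at 1-2h. These U1 and U5 shares are a description as well, with no test.

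The scaRNA PsiU2-55 was lower in orb2-delta-zz at 2-3h in both pools. In pool 1 it had 552, 622 and 509 normalized counts in orb2-delta-zz and 1134, 1005 and 1100 in wild type, with no overlap, and the log2 difference was -0.95 ± 0.27 (SE, limma adjusted p = 0.0245). In pool 3 it was close to the limit of counting, with 0.919, 1.12 and 1.41 in orb2-delta-zz and 5.81, 4.26 and 4.59 in wild type, and the difference was -1.45 ± 0.27 (adjusted p = 0.00572). The pool 1 call was lost on omission of any replicate but wild-type replicate 2 (-1.02 to -0.88). The pool 3 call was lost without wild-type replicate 1 (-1.34), with only the compared libraries in the fit, and with 10 in place of 1 added to the count, where the difference was -0.42. Its host Prp8 differed by -0.17 in pool 1 and -0.15 in pool 3, and was not called.

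Among the snoRNAs, Or-aca4, an orphan box H/ACA snoRNA with no assigned target, was higher in pool 1 of orb2-delta-zz at 2-3h, with 789, 1169 and 1204 normalized counts against 526, 465 and 520 in wild type (log2 difference 1.04 ± 0.26 SE, limma adjusted p = 0.0149). In the same libraries gcl-a, from an intron of germ cell-less, was lower, with 266, 284 and 210 against 558, 360 and 625 (-0.99 ± 0.34, adjusted p = 0.0493). Its host gcl, needed to form the germ-line cells, was higher by 1.49 in pool 1 and 1.23 in pool 3, so member and host were called in opposite directions in pool 1. Neither snoRNA showed overlap between genotypes, but the call of Or-aca4 was lost on omission of mutant replicate 2 or 3 or wild-type replicate 1 or 3 (0.93 to 1.07), and that of gcl-a on omission of any replicate but wild-type replicate 2 (-1.08 to -0.83).

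In pool 3, Psi18S-1377d was higher in orb2-delta-zz at 1-2h, with 58.5, 48.4 and 44.8 normalized counts against 26.7, 20.7 and 39.2 in wild type (log2 difference 0.83 ± 0.23 SE, limma adjusted p = 0.0391), and omission of any replicate but wild-type replicate 3 ended that call (0.62 to 0.91), as did fitting only the compared libraries (0.83) or adding 10 to the counts (0.66). Psi28S-3378, named here after its values were seen because its groups overlapped, was higher at 2-3h, with 33.0, 18.1 and 24.5 against 6.0, 7.0 and 19.7 (1.28 ± 0.38, adjusted p = 0.0398). Both guide pseudouridines in ribosomal RNA by their symbols, and both were measured on few counts in pool 3.

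Whether the genotypes differed in the pool gap itself was tested by the interaction of pool and genotype. No member passed the test in any window, where 0.518%, 0.482% and 0.136% of all genes were called. With shares this small, the absence of calls does not set the members apart from all genes. The members' median standard error was 0.85, 0.53 and 0.48 on the log2 scale over the windows, against 0.20, 0.28 and 0.37 for all genes. Their median interaction was -0.41, 0.04 and -0.08, against 0.03, -0.03 and 0.03. A difference in the pool gap between genotypes could thus have been missed. At an unadjusted limma p under 0.05 there were 1, 0 and 5 members at 0-1h, 1-2h and 2-3h. At 2-3h they included U2:38ABa at -1.07 ± 0.31 (SE, adjusted p = 0.166), Or-CD2 at -1.68 ± 0.56 (adjusted p = 0.222) and SC35-a at 0.87.

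In pool 1 a part of these RNAs had a higher level per length at 2-3h than at 0-1h, while most genes were called lower. On log2(TPM + 1), 24 of 66 members were higher and 0 lower at 2-3h in orb2-delta-zz, where 14.1% of all genes were called higher and 66.1% lower. In wild type 39 were higher and 2 lower, where 15.3% of all genes were called higher and 69.8% lower. The members' median was 0.69 in orb2-delta-zz, against -1.12 over all genes, and 0.87 in wild type, against -1.36. The TPM tables of the windows were made separately, TPM is a share of the total of a library, and other embryos were collected for each window, so these values show levels relative to the rest of the RNA in pool 1.

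In pool 3 the movement was smaller. There 12 members were higher and 2 lower in orb2-delta-zz, where 26.3% and 37.3% of all genes were called higher and lower, and 11 were higher and 2 lower in wild type, where the shares were 23.3% and 45.4%. The medians were 0.23 in orb2-delta-zz and 0.20 in wild type, against -0.08 and -0.29 over all genes. The share of members called higher was below that of all genes in both genotypes, although the members' medians were higher. The members were also measured less precisely, with a median standard error of 0.38 against 0.20 for all genes in each genotype.

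The pool 1 counts rested partly on single libraries. Without wild-type replicate 1 of 0-1h, whose pool 1 library had the lowest share of these RNAs, 15 members were higher and 6 lower in wild type, with a median of 0.42. In orb2-delta-zz the count of calls became 13, 12 and 13 without replicate 1 of 0-1h, replicate 2 of 2-3h or replicate 3 of 2-3h. Replicate 1 of 0-1h and replicate 2 of 2-3h are also the orb2-delta-zz libraries with the highest late-embryo marker sums of their groups in pool 1. Whether those embryos bear on the members' levels was not tested.

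**Figure D5:**
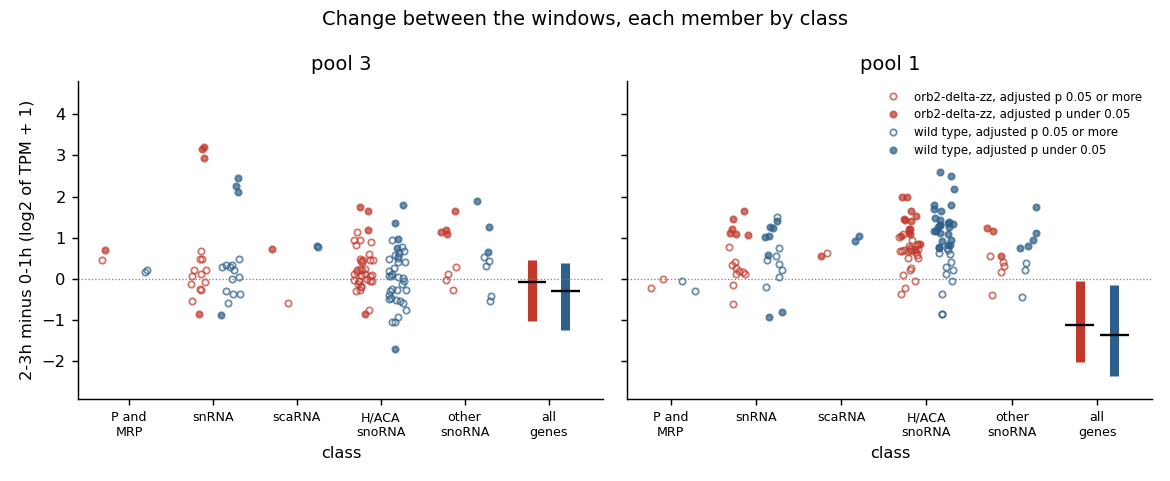
Log2 difference in TPM + 1, 2-3h minus 0-1h, for each of the 66 members with rows in all windows, by class, with orb2-delta-zz left of wild type, filled points past the threshold, and on the right a bar from the lower to the upper quartile of all genes with a line at their median. In pool 1 most members lie above the medians of all genes at -1.12 in orb2-delta-zz and -1.36 in wild type, and in pool 3 the highest points are U5 copies.

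Of the box H/ACA snoRNAs in pool 1, 14 of 38 were higher in orb2-delta-zz and 26 of 38 in wild type, and 0 were lower in either. These are 36.8% and 68.4%, close to the 36.4% and 62.1% of all members called in the same genotypes. Psi28S-2442b, from an intron of kra, had 1441, 4816 and 5580 TPM in pool 1 of orb2-delta-zz at 2-3h, against 712, 1266 and 688 at 0-1h. In wild type it had 2895, 4259 and 4931 TPM at 2-3h, against 365, 944 and 975 at 0-1h. The windows did not overlap, and the log2 difference was 1.99 ± 0.51 (SE, limma adjusted p = 7.4e-04) in orb2-delta-zz and 2.50 ± 0.51 (adjusted p = 4.5e-05) in wild type. Psi18S-841d had 4725, 6208 and 8751 TPM in wild type at 2-3h against 695, 2186 and 1780 at 0-1h (2.19 ± 0.46, limma adjusted p = 8.1e-05), and differed by 1.21 ± 0.46 (adjusted p = 0.0191) in orb2-delta-zz, where the windows overlapped. Psi28S-2876 went in opposite directions in the pools of wild type, at 2.60 ± 0.64 in pool 1 and -1.69 ± 0.64 in pool 3 (limma adjusted p = 4.4e-04 and 0.0203). The pool 3 call was lost on omission of wild-type replicate 3 of 0-1h (-1.38) or replicate 1 of 2-3h (-1.0). SC35-a was higher in pool 1 by 1.16 ± 0.36 in orb2-delta-zz and 1.75 ± 0.36 in wild type (limma adjusted p = 0.00483 and 6.3e-05).

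Among the 16 snRNAs, 6 were higher and 0 lower in pool 1 of orb2-delta-zz, and 6 were higher and 2 lower in wild type. U4:39B, the RNA that escorts U6 into the spliceosome, was higher in pool 1 by 1.46 ± 0.35 (SE) in orb2-delta-zz and 1.27 ± 0.35 in wild type (limma adjusted p = 4.0e-04 and 0.00148). The 2 lower members in wild type were U2 copies, U2:14B at -0.91 ± 0.32 and U2:38ABa at -0.81 ± 0.32. The call of U2:14B was lost on omission of wild-type replicate 3 of 0-1h (-0.63) or of 2-3h (-0.71). 7SKa was higher in wild type by 0.58 ± 0.17 (limma adjusted p = 0.00245). RNase P and RNase MRP RNA were called in pool 1 of neither genotype.

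In pool 3 the widest changes over time were those of U5 copies in both genotypes, which started from few counts. At 0-1h in pool 3 the 3 U5 copies with rows summed to 19.36, 15.77 and 13.05 normalized counts in orb2-delta-zz. In wild type they summed to 34.35, 27.03 and 42.74. U5 aligns the exons during splicing. U5:23D had 388, 232 and 309 TPM in pool 3 of orb2-delta-zz at 2-3h, against 41.6, 34.1 and 26.6 at 0-1h, and 469, 434 and 340 in wild type at 2-3h, against 81.7, 70.3 and 107 at 0-1h. The log2 difference was 3.14 ± 0.44 (SE, limma adjusted p = 3.6e-07) in orb2-delta-zz and 2.26 ± 0.44 (adjusted p = 4.6e-05) in wild type. U5:34A had 281, 177 and 232 TPM in pool 3 of orb2-delta-zz at 2-3h, against 37.3, 24.6 and 14.4 at 0-1h, and 171, 248 and 214 in wild type at 2-3h, against 35.2, 29.7 and 50.6 at 0-1h. Its difference was 3.20 ± 0.40 (limma adjusted p = 3.1e-08) in orb2-delta-zz and 2.44 ± 0.40 (adjusted p = 2.9e-06) in wild type, and U5:38ABa differed by 2.93 and 2.11. The windows did not overlap for U5:23D or U5:34A in either genotype. In pool 1 U5:23D was higher by 1.21 in orb2-delta-zz and 1.40 in wild type (limma adjusted p = 0.0139 and 0.00465). The change in pool 3 and that in pool 1 were not tested against each other.

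U3:54Ab was also higher in pool 3 at 2-3h, with 262, 303 and 193 TPM against 85.7, 126 and 117 at 0-1h in orb2-delta-zz, and 273, 301 and 266 TPM against 49.0, 49.2 and 170 at 0-1h in wild type. The log2 difference was 1.19 ± 0.38 (SE, limma adjusted p = 0.00696) in orb2-delta-zz and 1.9 ± 0.38 (adjusted p = 5.2e-05) in wild type. U11 was lower in pool 3 by -0.86 ± 0.25 in orb2-delta-zz and -0.88 ± 0.25 in wild type (limma adjusted p = 0.0035 and 0.0024). RNase MRP RNA was higher in pool 3 of orb2-delta-zz by 0.71 ± 0.26 (limma adjusted p = 0.0174).

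For 47 members in 27 hosts, the change over time could be set beside that of the host. The members' median in pool 1 was 0.72 in orb2-delta-zz and 1.05 in wild type, and the hosts' median was 0.19 in orb2-delta-zz and 0.16 in wild type. In pool 3 the members' median was 0.25 in orb2-delta-zz and 0.19 in wild type, and the hosts' 0.19 and 0.21.

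In pool 1 most mRNAs on the protein lists drawn up for these RNAs were called lower at 2-3h, as were most of all genes. The list of 17 genes for Sm and LSm proteins includes the Sm proteins, which form the ring on snRNAs. All 17 were lower at 2-3h in each genotype, with medians of -1.55 in orb2-delta-zz and -1.97 in wild type. All 6 tested genes for RNase P and RNase MRP proteins were lower in both genotypes (medians -1.56 in orb2-delta-zz and -2.38 in wild type), as were all 8 for the signal recognition particle and its receptor (-2.09 and -2.31). Of 6 genes for box H/ACA proteins, 1 was higher and 4 lower in each genotype. The U1 and U2 particle list of 12 had 2 higher and 6 lower in orb2-delta-zz and 1 higher and 6 lower in wild type. The noncoding hosts of snoRNAs were the exception, with 4 of 6 higher and 0 lower in orb2-delta-zz and 5 of 6 higher and 0 lower in wild type. Beside these counts, 66.1% of all genes in orb2-delta-zz and 69.8% in wild type were called lower, and 14.1% and 15.3% higher. The counts called lower lay near these shares for the box H/ACA list and below them for the U1 and U2 list.

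Between pools, the Sm and LSm mRNAs differed far less than the snRNAs with rows. The LSm genes on the list were not matched to the RNAs their proteins bind, and U6 and U7 had no row. Their median, pool 3 minus pool 1, was -1.01, -0.80 and -0.27 over the windows in orb2-delta-zz and -0.99, -0.89 and -0.04 in wild type. The mRNAs for RNase P and RNase MRP proteins had medians of -1.13, -1.13 and -0.89 in orb2-delta-zz and -1.25, -1.10 and -0.84 in wild type. The mRNAs for U1 and U2 particle proteins had on balance a higher scaled level in pool 3 than in pool 1. Called higher were 7, 7 and 8 of 12 in orb2-delta-zz, with the same counts in wild type. Their medians were 0.88, 1.26 and 1.09 in orb2-delta-zz and 1.00, 1.41 and 1.38 in wild type. Of all genes, 40.6%, 36.9% and 29.9% were called higher in pool 3 of orb2-delta-zz, and 39.8%, 37.0% and 29.3% in wild type.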

How the data were processed

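The authors' files hold 2 units for each window. The normalized counts are estimated counts divided by size factors set within a window, and the deposited TPM values are scaled per effective length and per library, by the file names and the values themselves. Named in the submitters' processing notes are Trim Galore 0.6.5, DESeq2 1.42.1 and Salmon 1.9.1, without further roles. Their genome build was not given in the sources used here. As deposited, this signal is not in whole numbers after the authors' scaling, so it was tested on a log scale and not as counts.

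Members were found by symbol through Ensembl release 115, and 71 gene IDs in the tables matched no symbol. Members and gene lists were chosen with earlier results of these data known. Pools and genotypes were compared with limma 3.58.1 (R 4.3.3) with a mean-variance trend, on log2(normalized count + 1), in genes averaging 10 or more, with the 12 libraries of a window in each fit. Windows were compared on log2(TPM + 1), in genes with a mean TPM of 1 or more and rows in all windows, with all 36 libraries. Both tests were two-sided, p-values were adjusted by Benjamini and Hochberg over all genes tested, and 0.05 was the threshold. Steps were tested on simulated data.

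The rule for naming members took all snRNAs, scaRNAs and RNase P and RNase MRP RNA, the U3 copies, the 4 snoRNAs per class with the highest mean TPM, and per contrast the 4 highest and 4 lowest differences among called members without overlap between groups and averaging 100 or more normalized counts (TPM of 10 or more over time). Members of hosts, copy shares and Psi28S-3378 were chosen after the values were seen. Pools 3 and 1 of a gradient share a replicate number, and the deviations of the pair correlated at 0.125 to 0.831 over 18 pairs, so the numbers pair the pools. With the gradient as a block the members called between pools numbered 71, 74 and 84, as without it. No library pair held identical values.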

Additional observations from a re-analysis of the deposited data

How the results depend on the processing

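The members' median was lower in pool 3 under every alternative run. Omission of single replicates, each with both pools, gave 69 to 71, 73 to 74 and 83 to 84 members called in the 3 windows. The counts over time and between genotypes moved more. With only the compared libraries in the fit, 45 members (43 higher, 2 lower) were called over time in pool 1 of orb2-delta-zz, against 24. Omission of single replicates gave 12 to 31 calls there (13 without replicate 1 of 0-1h or replicate 3 of 2-3h) and 21 to 43 in pool 1 of wild type, and 11 to 16 and 11 to 17 in pool 3 of orb2-delta-zz and wild type. For genotype, it gave 0 to 1, 1 to 2 and 2 to 5 calls in pool 1 and 0, 1 to 4 and 2 to 5 in pool 3 over the 3 windows. Upper-quartile scaling left 1 call at 1-2h in pool 1. In pool 3, fitting only the compared libraries gave 2 calls at 0-1h and 3 at 2-3h, adding 10 to the counts gave 3 at 2-3h, and log2(TPM + 1) gave 10 at 2-3h and 1 interaction call at 2-3h.

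Deviations of same-numbered libraries of the genotypes correlated above 0.1 for every number in pool 1 at 0-1h (0.151 to 0.244) and 2-3h (0.22 to 0.632), but not in pool 3 or at 1-2h (-0.737 to 0.761). With the replicate number as a block, 1 member was called between genotypes in pool 1 at 0-1h, against 0, and 2 at 0-1h and 10 at 2-3h in pool 3, against 0 and 5.

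Without U1:21D the share of TPM was 18.2% in pool 1 of orb2-delta-zz at 2-3h and 17.2% in wild type, 0.967% and 1.02% in pool 3 of the same groups, 0.670% in pool 3 and 11.5% in pool 1 of orb2-delta-zz at 1-2h, and 0.852% in pool 3 of orb2-delta-zz at 0-1h. The cause of these movements was not tested. Of the alternatives for single members, 642 kept direction and call, 45 lost the call and 0 turned round. These members were named because they were called, and they include the wide pool differences. No pool difference lost its call, and most of the losses were of genotype calls. Low counts in pool 3 limit small members there.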
